A study of Mus musculus with 11 samples.

Results

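Within a single-cell RNA library of mouse T cells, the cells described here carried RNA of Cxcr5, the chemokine receptor that guides lymphocytes into B cell follicles, and no detected RNA of Pdcd1, the gene of the inhibitory receptor PD-1. They were selected by transcript counts alone. A cell had to hold at least 1 Cxcr5 UMI (a UMI is 1 counted RNA molecule), no UMI of Pdcd1, of the regulatory T cell gene Foxp3 or of the B cell genes Cd79a and Ms4a1, at least 2 UMIs of Cd3d, Cd3e and Cd3g together, and UMIs of fewer than 2 of the 4 cell cycle genes Mki67, Top2a, Birc5 and Cdk1. Of 15002 barcodes, 13190 had at least 500 genes and under 10% mitochondrial UMIs, and 665 of those met the rule. Since transcript counts chose these Cxcr5+ Pdcd1- cells, the levels of the genes named in the rule describe the selection and are not results.

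The library was made from CD4+CD44+ T cells sorted from the draining lymph nodes of C57BL/6 mice heterozygous for a Sostdc1-EGFP reporter allele, which all gates compared here share. CD44 marks antigen-experienced T cells. The labels give no age, immunisation, time point or number of animals, and the series' other 10 samples were not analysed here. With 1 library there was no replicate check. No test was made, and every interval covers counting error of UMIs or cells only.

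CXCR5 and PD-1 together define T follicular helper (Tfh) cells, which under the factor Bcl6 leave the T cell zone, reach B cells in the follicle and provide Il21, Il4 and CD40 ligand in the germinal centre. PD-1 is high on Tfh cells in germinal centres, while CXCR5+ cells with little PD-1 are known as early or pre-Tfh cells, circulating Tfh-like cells and resting Tfh memory cells. Cells outside the follicle programme keep Il7r, Ccr7 and Klf2, genes of survival and of recirculation through lymph nodes. Sostdc1, whose product is a secreted antagonist of BMP and Wnt signalling, is the gene whose locus the reporter marks.

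The Cxcr5+ Pdcd1- cells were compared with 3 other gates that passed the same filters on Foxp3, B cell, CD3 and cell cycle genes. There were 668 Cxcr5+ Pdcd1+ cells, 917 Cxcr5- Pdcd1+ cells and 5667 Cxcr5- Pdcd1- cells. Of these 7917 T cells the Cxcr5+ Pdcd1- cells made up 8.40% (95% Clopper-Pearson interval 7.80 to 9.03), and of the cells with a Cxcr5 UMI 49.9% (47.2 to 52.6). Their 4330831 UMIs compare with 5287602, 6133102 and 33760501 in the other gates in the order given, and median UMIs per cell were 5828 against 7040, 5794 and 5695. The Cxcr5+ Pdcd1+ cells were thus the deepest gate.

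Most of the 665 cells sat just inside the Cxcr5 threshold. Cxcr5 had 1 UMI in 482 cells, 2 in 125 and 3 or more in 58, with a maximum of 10. Just outside the rule were 266 cells with 1 Pdcd1 UMI and 132 with 2 in the Cxcr5+ Pdcd1+ gate. Among cells without Pdcd1 UMIs, 166 were left out for a Foxp3 UMI, 91 for Cd79a or Ms4a1 UMIs and 46 for cycling genes, each counted with the other filters passed.

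The absence of Pdcd1 UMIs depended on depth and cannot be read as absence of PD-1. When each cell was thinned at random to 3000 UMIs, 34.3% (30.6 to 38.0) of 651 Cxcr5+ Pdcd1+ cells lost their last Pdcd1 UMI. The loss was 55.4% in those with 1 UMI and 13.3% in those with 3 or more. Read on thinned counts, the Cxcr5+ Pdcd1- gate held 553 cells, and 20.4% (17.1 to 24.0) of them had been Cxcr5+ Pdcd1+ at full depth. Some of the 665 cells may thus carry Pdcd1 RNA below the depth of detection.

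Detection of Cxcr5 had its own background. A Cxcr5 UMI was found in 10.5% (9.76 to 11.3) of the Pdcd1-negative T cells at a median of 5712 UMIs, in 42.1% (39.7 to 44.6) of the Pdcd1-positive ones at 6234, and in 8.82% (4.64 to 14.9) of 136 T cells with Cd8 and without Cd4 UMIs at 7834. Thinned to 3000 UMIs, these shares were 6.39% (5.78 to 7.05), 27.5% (25.3 to 29.9) and 2.99% (0.819 to 7.47). The share among Pdcd1-negative cells thus lay within the interval of the CD8 cells, at full depth and thinned. By share, its distance from that background was not detectable over this number of CD8 cells. The level of Cxcr5 was also read in CPM, the scale used below, which relates a gene's UMIs to all UMIs of the cells. It was higher in the Pdcd1-negative T cells, at 24.8 CPM, than in the CD8 cells, at 10.9 CPM. Cxcr5 was found in 12 of these CD8 cells, and the difference in level was not tested. Cxcr5 overlaps the gene Bcl9l in RefSeq, so reads of the pair may not be told apart.

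Genes outside the rule were read for the labelled identity. Trbc2 was detected in 99.1% of the 665 cells, Trac in 96.5% and Cd4 in 69.9% (66.3 to 73.4). Cd4 was detected in 82.2% of Cxcr5+ Pdcd1+ cells and 56.4% of Cxcr5- Pdcd1- cells. Cd8a and Cd8b1 together had at least 2 UMIs, without Cd4, in 11 of the 665 cells and in 0 of 668 Cxcr5+ Pdcd1+ cells. With a zero count taken to allow up to 3 cells, the latter share may reach 0.449%, and its Clopper-Pearson limit is 0.551%.

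RNA of other cell types was present in all gates. The 22 B cell markers outside the rule summed to 674 CPM (a gene's UMIs relative to all UMIs of the gate, the usual scale for counts), against 743 to 978 in the other 3 gates. Most of this was immunoglobulin RNA such as Igkc and Ighm. Of the 22 markers 21 were detected, and only Fcer2a, a receptor of mature B cells, had no UMI. Cd22, Pax5 and Cd79b stood at 11.5, 5.08 and 8.54 CPM. They stood at 30.8, 14.2 and 5.67 CPM in Cxcr5+ Pdcd1+ cells and at 4.09, 0.859 and 10.1 in Cxcr5- Pdcd1- cells. The 16 myeloid and dendritic markers summed to 282 CPM, against 199 to 354. Of the 1223 UMIs behind that sum, 564 lay in 1 cell, which also held 448 of 496 S100a8 UMIs and 390 of 474 Lyz2 UMIs. Of the 16 markers 12 were detected, and Xcr1, Clec9a, Cd209a and Ccl22 had no UMI, as in the Cxcr5+ Pdcd1+ cells. With a zero count taken to allow up to 3 UMIs, each may reach 0.693 CPM. Siglech, another dendritic gene, had 4 UMIs in 4 of the 665 cells. No doublet caller was run.

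Tox2, P2rx7 and Lmo4, proposed with Cxcr5 as markers of these cells, were detected at levels between the Cxcr5+ Pdcd1+ and the Cxcr5- Pdcd1- cells. Tox2, which encodes a nuclear factor that supports Tfh development, stood at 69.7 CPM (95% Poisson interval 62.1 to 78.1), against 162 (151 to 173) in Cxcr5+ Pdcd1+, 45.8 (40.6 to 51.5) in Cxcr5- Pdcd1+ and 11.7 (10.6 to 12.9) in Cxcr5- Pdcd1- cells. P2rx7, a receptor for extracellular ATP, stood at 49.0 CPM (42.6 to 56.0), against 97.6, 28.5 and 12.4. Lmo4, a LIM-domain cofactor, stood at 93.1 CPM (84.2 to 103), against 137, 66.7 and 50.3.

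All 3 genes therefore had the same order of gates, with the intervals of neighbouring gates apart. On the log2(CPM + 1) scale, Lmo4 differed by under 2-fold from the Cxcr5+ Pdcd1+ (-0.56) and the Cxcr5- Pdcd1- cells (0.88). P2rx7 did so from the Cxcr5+ Pdcd1+ cells (-0.98). Lmo4 also differed by depth inside the gate, at 155 CPM in the 222 shallowest and 63.4 in the 222 deepest cells. Cxcr5+ Pdcd1+ cells of the shallow band had 214 CPM. No marker was highest in the Cxcr5+ Pdcd1- cells. Tox2 was detected in 27.1% (23.7 to 30.6) of these cells, in 62.4% of Cxcr5+ Pdcd1+ cells and in 5.42% of Cxcr5- Pdcd1- cells. After thinning the shares were 15.5%, 37.5% and 3.08%, in the same order. In 465 B cells of the library, at a median of 4753 UMIs, Tox2 was detected in 1.72% and P2rx7 in 0.43%, while Lmo4 was detected in 25.2%, so that Lmo4 did not separate these T cells from B cells by its share.

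**Figure D1:**
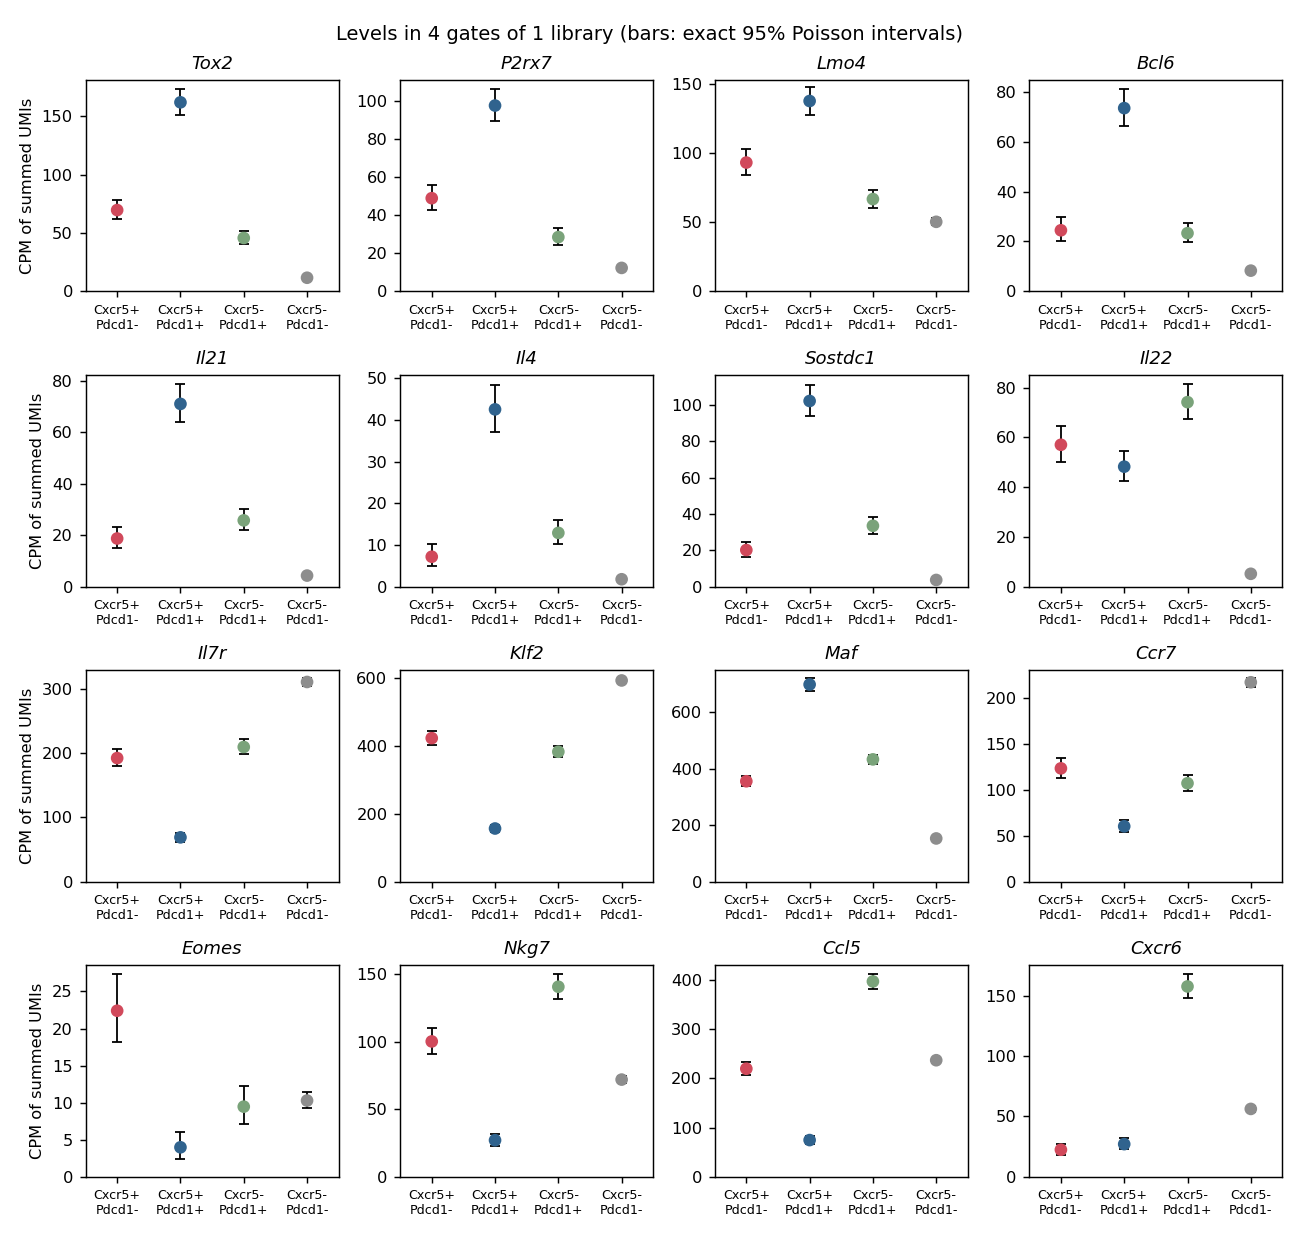
CPM of summed UMIs (vertical axes, from 0) of 16 genes in the 4 gates of the library, with points for the gates and bars for exact 95% Poisson intervals. Tox2 stood at 69.7 CPM in Cxcr5+ Pdcd1- cells and 162 in Cxcr5+ Pdcd1+ cells, while Il7r stood at 192 and 68.8.

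Against the Cxcr5+ Pdcd1+ cells, the Cxcr5+ Pdcd1- cells held less RNA of the Tfh programme and more of the recirculation and cytotoxic genes. A gene was called when it reached 20 CPM in either gate and differed at least 2-fold on the log2(CPM + 1) scale. Of 5491 genes tested, 97 were called (1.77%), with 28 higher (0.51%) and 69 lower (1.26%) in the Cxcr5+ Pdcd1- cells. The median over all genes tested was -0.08 on the log2 scale. The rule used Pdcd1 in this contrast, and RNA that accompanies Pdcd1 was therefore bound to differ.

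Several Tfh transcription factors were lower. Of 14 tested, 6 were called lower (Bcl6, Tox, Tox2, Ascl2, Pou2af1 and Cebpa) and 0 higher, with a median of -0.94. Bcl6, the master regulator of Tfh cells, stood at 24.5 CPM (20.04 to 29.6) against 73.4 (66.3 to 81.1), which is 2.998-fold lower (2.41 to 3.75). Ascl2, a factor that can induce Cxcr5, stood at 3.46 CPM (1.94 to 5.71) against 36.5 (31.5 to 42.0), with UMIs in 11 of 665 cells. Ascl2, Pou2af1 and Cebpa reached 20 CPM only in the Cxcr5+ Pdcd1+ cells, where they were high, so the list's count and median carry no support of their own. Among the 11 factors at 20 CPM in both gates, 3 were called lower, Bcl6, Tox and Tox2.

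Tcf7, an early factor of the Tfh fate, differed little, at 452 CPM against 496. The same held for Slamf6, a surface receptor of the SLAM family, at 538 CPM against 514. Of the 18 Tfh surface and adaptor genes tested, 4 were called lower (Cxcr4, Hif1a, S1pr2 and Rgs16), of which Hif1a alone reached 20 CPM in both gates. S1pr2, which confines cells to the germinal centre, stood at 11.3 CPM against 33.5, 2.96-fold lower (2.15 to 4.15). Hif1a, the oxygen-responsive factor, stood at 243 CPM against 547, and it was detected in 55.9% of the Cxcr5+ Pdcd1- cells.

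Of 6 secreted products tested, 5 were called lower (Il21, Il4, Sostdc1, Angptl2 and Cxcl10). Il21, Il4 and Cxcl10 entered the test only through their level in the Cxcr5+ Pdcd1+ cells, and Sostdc1 and Angptl2 reached 20 CPM in both gates. Il21, a cytokine that Tfh cells give to B cells, stood at 18.7 CPM (14.9 to 23.2) against 71.1 (64.1 to 78.7), 3.80-fold lower (2.98 to 4.90). Il4, which acts on antibody class switching, stood at 7.16 CPM (4.86 to 10.2) against 42.6 (37.2 to 48.5), 5.94-fold lower (4.07 to 8.96).

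Sostdc1 stood at 20.1 CPM (16.1 to 24.8) against 102 (93.7 to 111), 5.08-fold lower (4.05 to 6.45). It was detected in 32 of 665 cells, 4.81% (3.31 to 6.73), against 16.6% (13.9 to 19.7) of Cxcr5+ Pdcd1+ cells, 6.98% of Cxcr5- Pdcd1+ cells and 1.13% of Cxcr5- Pdcd1- cells. B cells of the library had it in 1.72% (0.746 to 3.36), an interval that meets that of the Cxcr5+ Pdcd1- cells only at its upper end, while the share in Cxcr5- Pdcd1- cells was at this background. Thinned, the shares were 3.01%, 11.7%, 5.10% and 0.65% in the gates in that order. Sostdc1 also differed by depth inside the gate, with 46.2 CPM (32.8 to 63.1) in the 222 shallowest cells and 5.48 CPM (2.83 to 9.57) in the 222 deepest. Within the same bands of depth, the Cxcr5+ Pdcd1+ cells had 197 CPM in 140 cells and 78.0 CPM in 357 cells.

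Among the genes called, the lowest ratio belonged to Gal, the neuropeptide galanin. It had 4 UMIs in 2 of the 665 cells and 509 UMIs in 28 of 668 Cxcr5+ Pdcd1+ cells, 0.924 CPM (0.252 to 2.36) against 96.3 (88.1 to 105). Padi4, a peptidylarginine deiminase, followed at 4.16 CPM against 55.4, 13.3-fold lower (8.29 to 22.8), with UMIs in 14 of the cells and in 142 of the comparison cells. Krt83, Dnase1l3, Cxxc5, Cebpa, Fam43a, Ctsl and Coq8a were the others of the 12 lowest, between 4.49-fold and 10.1-fold lower. Like Gal and Padi4, they entered the test only through the Cxcr5+ Pdcd1+ cells.

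The resting and central memory list was higher. Of 18 tested, 6 were called higher, among them Ccr7, Klf2, Il7r, Dapl1 and Ly6c2, and 0 lower, with a median of 0.82. Il7r, the receptor for the survival cytokine IL-7, stood at 192 CPM (179 to 206) against 68.8 (61.9 to 76.3), 2.79-fold higher (2.46 to 3.17). Klf2, a factor that maintains S1pr1, stood at 423 CPM (404 to 443) against 157 (146 to 168), 2.70-fold higher (2.49 to 2.94).

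Ccr7, the receptor for T zone chemokines, stood at 124 CPM against 60.3. It was detected in 39.8% of the Cxcr5+ Pdcd1- cells and in 24.7% of the Cxcr5+ Pdcd1+ cells. Itga4, an integrin chain, and Ccr2, a receptor for inflammatory chemokines, were also called higher. Ccr2 entered the test only through the Cxcr5+ Pdcd1- cells.

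**Figure D2:**
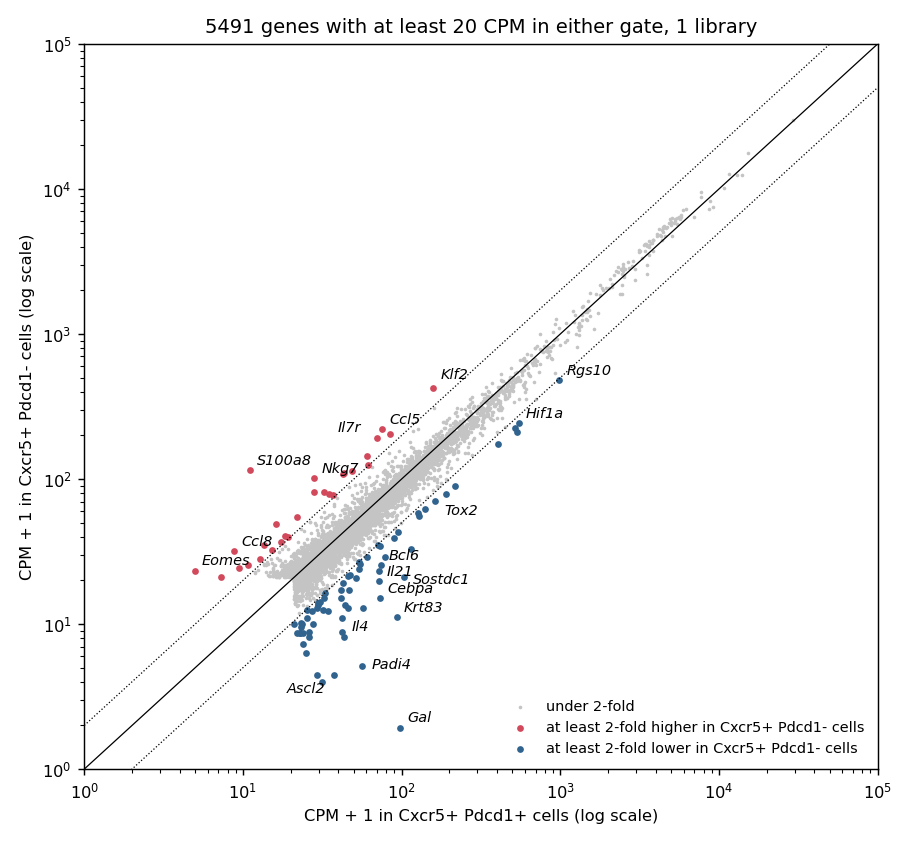
CPM + 1 of 5491 genes in Cxcr5+ Pdcd1- cells (vertical, log scale) and in Cxcr5+ Pdcd1+ cells (horizontal, log scale), 1 point per gene, with a solid line of equality and dotted lines at 2-fold. The 28 genes above the upper line include Klf2, Il7r, Ccl5 and Nkg7, and the 69 below the lower line include Gal, Padi4, Sostdc1 and Bcl6.

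Of 12 Th1 and cytotoxic genes tested, 5 were called higher (Ccl5, Gzmk, Nkg7, Eomes and Ctsw) and 0 lower. Only Ccl5 and Nkg7 of these reached 20 CPM in both gates, and the others entered the test through the Cxcr5+ Pdcd1- cells. Eomes, a factor of cytotoxic and memory T cells, stood at 22.4 CPM against 3.97 (5.64-fold, 3.49 to 9.52), in 41 of 665 cells. Nkg7, a granule protein gene, stood at 100.2 CPM against 27.0, in 81 cells. Ccl5, a chemokine of memory T cells, stood at 220 CPM against 74.5, in 63 cells. By depth, Ccl5 did not differ beyond counting error in the shallow band of cells (under 4963 UMIs), at 446 CPM (402 to 494) against 434 (381 to 493), while the deep band (above 6849 UMIs) had 148 (132 to 165) against 27.9 (22.8 to 33.8). The Cxcr5+ Pdcd1+ cells were the lowest gate for both genes. Nkg7 and Ccl5 stood at 71.9 and 237 CPM in Cxcr5- Pdcd1- cells, and at 141 and 397 in Cxcr5- Pdcd1+ cells. Against Cxcr5- Pdcd1- cells, 13 genes of the list were tested, with 1 called higher (Eomes), 1 lower (Gzmb) and a median of -0.06.

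Within the Cxcr5+ Pdcd1- gate the cytotoxic RNA was concentrated in few cells, some of which carried Cd8. In 52 cells with UMIs of at least 2 of Eomes, Ccl5, Nkg7 and Gzmk, Cd8a stood at 140.5 CPM and Cd8b1 at 269.7, against 4.72 and 15.97 CPM in the 452 cells that had neither 2 of these genes nor a UMI of Bcl6, Il21, Il4, Sostdc1 or Ascl2. Cells with a Cd4 UMI alone, an alternative chosen after seeing the data, gave a log2 ratio of 1.53 for Eomes, 1.15 for Nkg7, 1.78 for Ccl5 and 1.58 for Gzmk, against 2.23, 1.85, 1.55 and 1.25 over all cells. Ctsw and Ly6c2 were no longer called, at 0.88 and 0.57, and Cd8b1 went from 1.38 to -0.13.

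Calls that rested on 1 cell were S100a8, S100a9 and Ccl8, genes of myeloid cells. One cell each held 90.3%, 62.2% and 78.9% of their UMIs, and without the top cell of each gate the log2 ratios went from 3.39, 1.61 and 1.86 to 0.18, 0.32 and 0.16. In the comparison gate 62.7% of Cxcl10 UMIs lay in 1 cell, and the ratio of Cxcl10 went from -1.81 to -0.72 without the top cell of each gate.

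Against the Cxcr5- Pdcd1- cells, which made up most of the T cells, the Cxcr5+ Pdcd1- cells held more Tfh RNA and less of the resting programme. Of 5233 genes tested, 70 were called (1.34%), with 53 higher (1.01%) and 17 lower (0.325%). The median over all genes tested was 0.18, and log2 values are read relative to it. Centred on that median, 30 genes were higher and 33 lower, so the excess of higher calls depended on the scaling. Both comparisons use the same 665 cells and are not independent of each other.

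The largest ratio was that of Il22, a cytokine of Th17 and Th22 cells that acts on epithelium. It stood at 57.0 CPM (50.1 to 64.6) against 5.12 (4.39 to 5.95), 11.1-fold higher (9.13 to 13.6), in 39 of 665 cells, 5.86% (4.20 to 7.93), and 22.3% of its UMIs lay in 1 cell. The other Pdcd1 gates had 48.2 CPM with Cxcr5 and 74.2 without. Il17a, the signature cytokine of Th17 cells, did not follow this order, with 3.69 CPM in 3 cells against 73.0 CPM in Cxcr5- Pdcd1+ cells, where 217 of its 448 UMIs lay in 1 cell. Il1r1, a receptor for IL-1, stood at 27.9 CPM against 7.43, 3.76-fold higher, and its decoy Il1r2 at 40.9 against 10.1, 4.03-fold higher. Both entered this test only through the Cxcr5+ Pdcd1- cells.

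Among Tfh factors, 3 of 11 tested were called higher (Bcl6, Tox2 and Maf) and 0 lower. Maf reached 20 CPM in both gates, and Bcl6 and Tox2 only in the Cxcr5+ Pdcd1- cells. Tox2 was 5.95-fold higher (5.10 to 6.92) and Bcl6 2.94-fold higher (2.33 to 3.69). Maf, which promotes Il4 and Il21, stood at 356 CPM against 153. Of the surface and adaptor genes, 3 of 15 were called higher (Sh2d1a, P2rx7 and Hif1a). P2rx7 entered the test only through the Cxcr5+ Pdcd1- cells. Sh2d1a, the adaptor SAP that Tfh cells need for contact with B cells, stood at 354 CPM against 159, 2.23-fold higher (2.11 to 2.36). Its log2 difference of 1.15 became 0.98 once centred on the median of all genes, which ends the call.

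Of 3 secreted products tested, Sostdc1 was called at 5.56-fold higher (4.17 to 7.38), which turned to a log2 ratio of -0.79 in the 69 cells without B cell UMIs, and Angptl2 at 3.63-fold higher (2.95 to 4.46). Both entered the test only through the Cxcr5+ Pdcd1- cells, so this count carries no support of its own. Asb2, a ubiquitin ligase subunit, stood at 28.2 CPM against 5.39, and Egln3, an oxygen sensor that acts on Hif1a, at 40.2 against 10.0. Rnf157 and Tspan5 were also among the 12 highest, at 4.19-fold and 3.30-fold. Like Asb2 and Egln3, they entered the test only through the Cxcr5+ Pdcd1- cells, where they were high. Angptl2 overlaps another measured gene in RefSeq, and counting between the partners is uncertain. The same holds for Hif1a, Itga4, Ctsw, Cxcr6, Il1r2, Cxcl10 and Tpi1. Il21 and Il4 did not reach 20 CPM in either gate and were not tested, with ratios of 4.38 (3.30 to 5.80) and 4.10 (2.56 to 6.43) from 81 and 31 UMIs. In those 69 cells the log2 ratio of Il21 turned to -2.18. Ratios of Il4, Bcl6 and Tox2 kept their sign in every alternative. So few cells may hold very few UMIs of Il21 or Sostdc1, and their turns cannot be read as lower RNA.

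Of the resting and central memory list, 4 of 19 were called lower (Bach2, Igfbp4, Ly6c1 and Tdrp) and 0 higher, with a median of -0.50. Tdrp entered the test only through the Cxcr5- Pdcd1- cells. Igfbp4, an insulin-like growth factor binding protein, stood at 111 CPM against 417, 3.76-fold lower (3.43 to 4.13). Ly6c1, a surface gene with the near-identical copy Ly6c2, stood at 30.5 CPM against 113. Bach2, a repressor that holds T cells at rest, stood at 24.7 CPM against 50.8. Klf2, Ccr7 and Il7r were not called in this contrast, with the Cxcr5+ Pdcd1- cells at 423, 124 and 192 CPM against 593, 217 and 310.

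Cxcr6, a receptor of tissue-homing T cells, was called lower at 22.4 CPM against 56.2, and it stood at 158 CPM in Cxcr5- Pdcd1+ cells. Ly6d, H2-Aa, H2-Eb1, H2-Ab1 and Cd74, genes of antigen-presenting cells, together with Irf8, Tyrobp and S100a9, were among the 12 lowest. This changed with few cells. Without the cells with 10 or more myeloid UMIs, 6 of the 665 and 81 of the 5667, the H2-Aa log2 ratio went from -2.44 to -0.25, Tyrobp from -1.36 to -0.13, and Ly6d, H2-Eb1, H2-Ab1, Cd74, Irf8 and S100a9 turned above 0, and 11 genes were called lower.

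**Figure D3:**
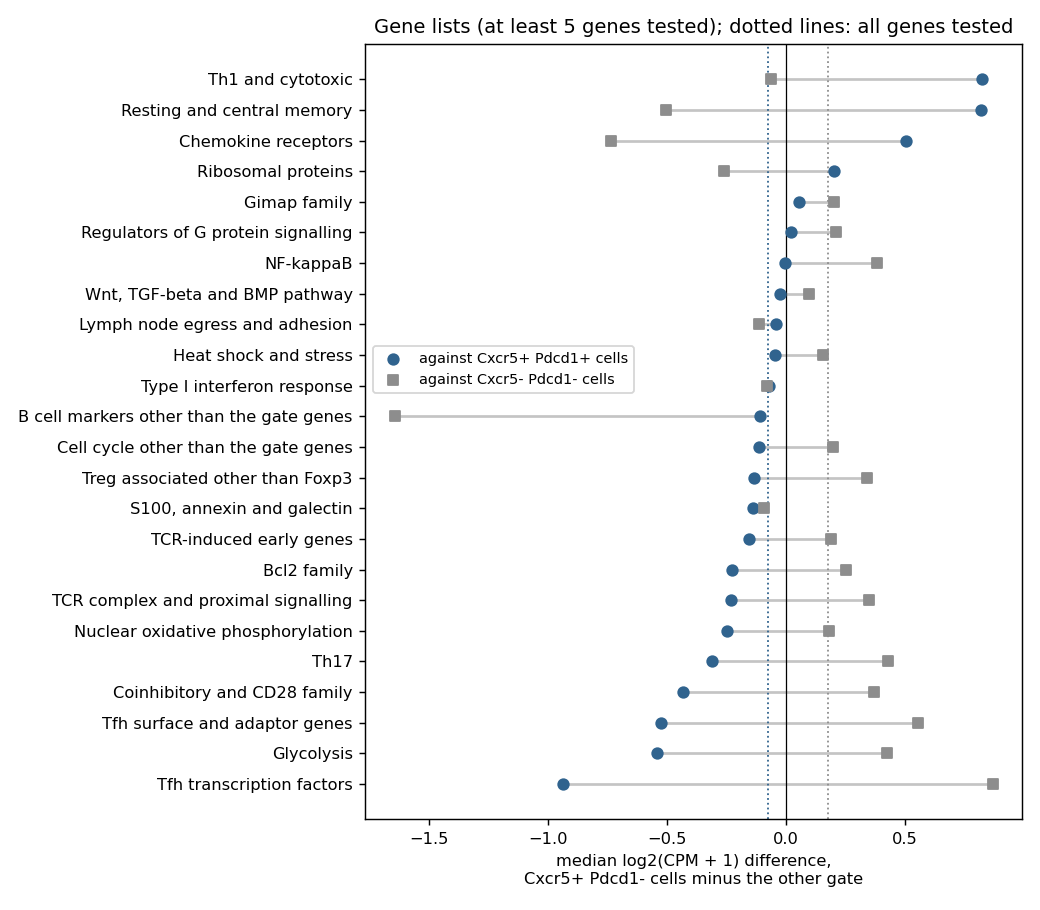
Median log2(CPM + 1) difference of each gene list with at least 5 genes tested in both comparisons (horizontal axis), Cxcr5+ Pdcd1- cells minus Cxcr5+ Pdcd1+ cells (circles) or minus Cxcr5- Pdcd1- cells (squares), with dotted lines for the median of all genes tested. Tfh factors had medians of -0.94 and 0.87, and the resting and central memory list 0.82 and -0.50.

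No gene of glycolysis or of the ribosomal proteins was called. Of 12 glycolysis genes tested, 12 lay below 0 against Cxcr5+ Pdcd1+ cells (median -0.54), as did 63.8% of all genes tested. Against Cxcr5- Pdcd1- cells 11 lay above 0 (median 0.42), as did 81.4% of all genes tested, and 9 of the 12 lay above the median of all genes. Tpi1, a glycolytic enzyme, stood at 86.8 CPM, against 168 and 46.4. Of 38 ribosomal protein genes, 37 lay above 0 in the first comparison (median 0.20) and 38 below 0 in the second (median -0.26). Below 0 in the second comparison lay 18.6% of all genes tested. Oxidative phosphorylation, heat shock, cell cycle and Gimap lists also had 0 genes called in both comparisons.

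The type I interferon list had 0 of 25 and 0 of 24 genes called, with medians of -0.07 and -0.08. Genes of T cell receptor signalling had 0 of 22 called in either comparison, with medians of -0.23 and 0.35. Among 15 early genes of receptor stimulation, 3 were called lower against Cxcr5+ Pdcd1+ cells (Egr2, Irf8 and Nfkbid). All 3 entered that test only through the Cxcr5+ Pdcd1+ cells, where they were high, so the count carries no support of its own. Of 16 coinhibitory and CD28 family genes, 15 were in the matrix and 12 were tested. Cd160, an inhibitory receptor, was called lower against Cxcr5+ Pdcd1+ cells, at 12.5 CPM against 42.7, and it too entered the test only through the latter. Lag3, another inhibitory receptor, was called higher against Cxcr5- Pdcd1- cells, at 63.5 CPM against 27.0.

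The remaining lists had few calls. Against Cxcr5+ Pdcd1+ cells, 1 of 5 Th2 genes (Il4), 1 of 5 Th17 genes (Il1r1) and 0 of 11 Treg-associated genes were called, all lower. Of 7 regulators of G protein signalling, Rgs10 and Rgs16 were called lower, with Rgs10, a GTPase activator of chemokine receptor signalling, at 479 CPM against 980. Il4 and Rgs16 entered this comparison only through the Cxcr5+ Pdcd1+ cells. Against Cxcr5- Pdcd1- cells, 2 of 7 Th17 genes (Il22 and Il1r1) and 2 of 8 Bcl2 family genes were called higher. The latter were Bcl2a1b and Bcl2a1d, near-identical copies whose counts are uncertain, and Bcl2a1d was no longer called after centring (0.98). Il22 and Il1r1 entered the comparison with Cxcr5- Pdcd1- cells only through the Cxcr5+ Pdcd1- cells, so the Th17 count carries no support of its own.

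Over the genes that separate the outer gates, the Cxcr5+ Pdcd1- cells lay in between. Between Cxcr5+ Pdcd1+ and Cxcr5- Pdcd1- cells, 385 of 5430 genes were called (7.09%), 298 higher (5.49%) and 87 lower (1.6%), without use of the 665 cells. With 0 for the level of Cxcr5- Pdcd1- and 1 for that of Cxcr5+ Pdcd1+ cells on the log2 scale, the median position of the Cxcr5+ Pdcd1- cells was 0.49 (quartiles 0.37 and 0.61). It was 0.53 over the 298 genes and 0.37 over the 87. Positions below 0 were taken by 6 genes, among them Ctsl, Nkg7 and Ly6c2, and positions above 1 by another 6, Cxcr6, Il22, Jaml, Cd74, H2-Aa and Ly6d. The Cxcr5- Pdcd1+ cells had a median position of 0.57, with 20 genes below 0 and 18 above 1.

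**Figure D4:**
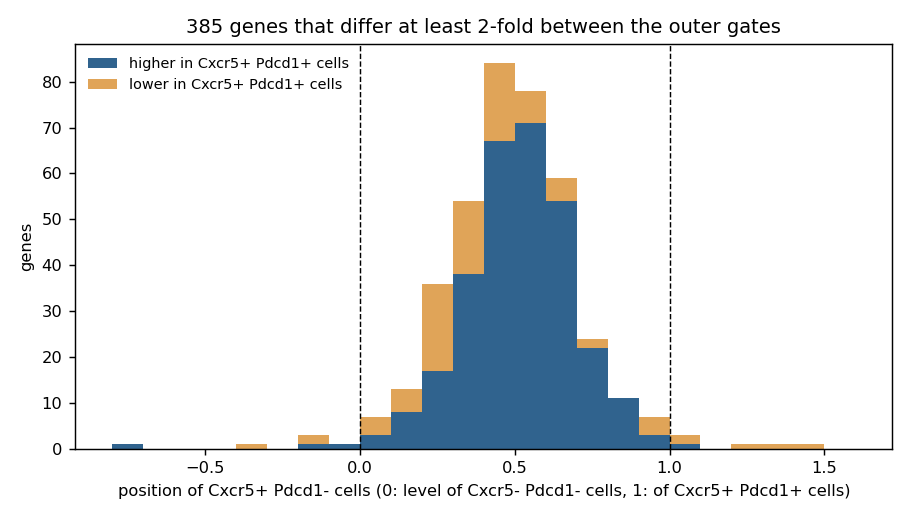
Number of genes (vertical axis) by position of the Cxcr5+ Pdcd1- cells between the Cxcr5- Pdcd1- cells (0) and the Cxcr5+ Pdcd1+ cells (1), for 298 genes higher and 87 lower in the latter, stacked, with dashed lines at 0 and 1. The median was 0.49, and 12 of the 385 genes fell outside the range from 0 to 1.

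Among Cxcr5+ cells, levels of several genes differed by the number of Pdcd1 UMIs, which the rule used, so that these levels are a description. From 0 UMIs (the 665 cells) over 1 (266 cells), 2 (132), 3 or 4 (142) to 5 or more (128), Tox2 stood at 69.7, 127, 173, 170 and 201 CPM. Bcl6 stood at 24.5, 49.2, 76.6, 78.2 and 105 CPM over the same bins. Il7r stood at 192, 109, 46.6, 60.4 and 30.5 CPM. Median UMIs per cell also went from 5828 to 8791, and its part in these differences was not tested.

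The cells without a Pdcd1 UMI were at one end of each of these 3 series. Bcl6 was higher in each following bin, while Tox2 and Il7r did not keep a strict order in the bins above 1 UMI. Klf2 stood at 423, 243, 134, 90.1 and 101 CPM, and Il21 at 18.7, 46.6, 42.5, 73.1 and 131. Sostdc1 had another shape, at 20.1, 77.7, 108, 151 and 89.7 CPM, highest in the cells with 3 or 4 Pdcd1 UMIs. Within 3 bands of UMI number, set by the tertiles of the Cxcr5+ Pdcd1- cells, Tox2 stood at 67.5, 82.6 and 63.0 CPM from the shallow to the deep band. In the Cxcr5+ Pdcd1+ cells of these bands it stood at 214, 173 and 151 CPM. The gates thus differed in Tox2 within each band in the direction of the whole, with median UMIs of 3959 and 3993 in the shallow band and 9166 and 9454 in the deep one.

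**Figure D5:**
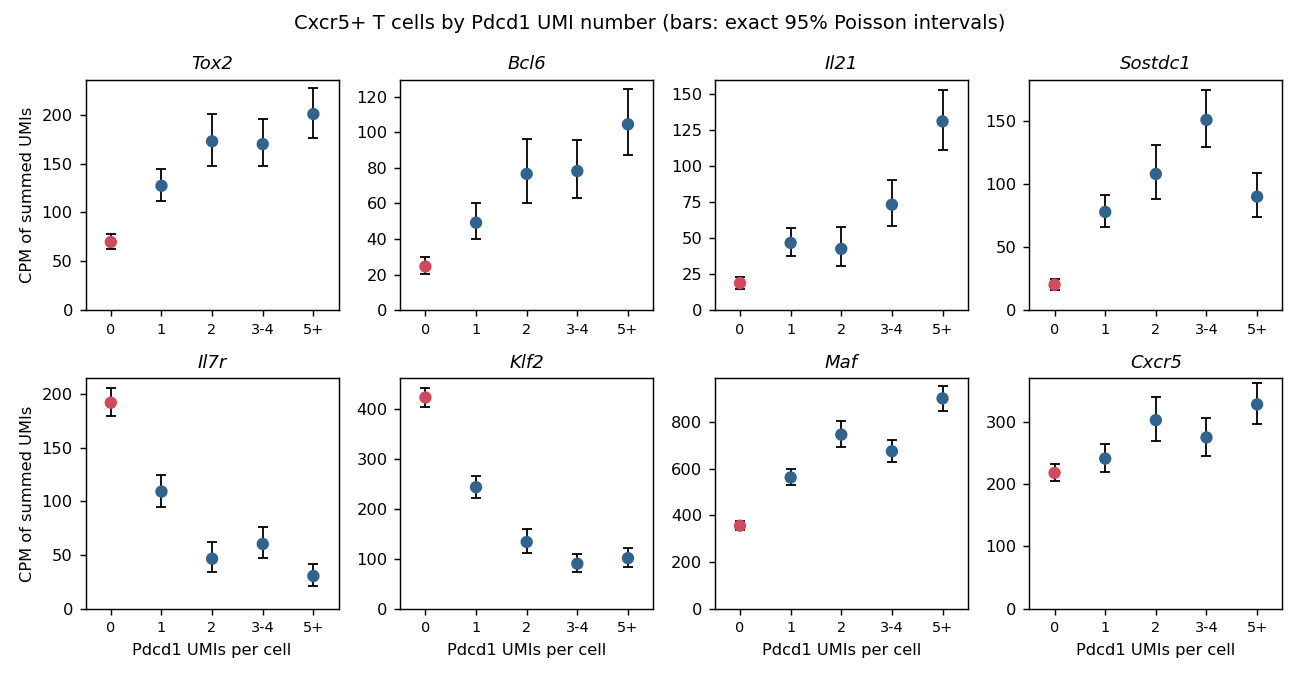
CPM of summed UMIs (vertical axes, from 0) of 8 genes in Cxcr5+ T cells by the number of Pdcd1 UMIs per cell (horizontal axes), with bars for exact 95% Poisson intervals. The first point is the 665 cells without Pdcd1 UMIs, where Il7r stood at 192 CPM and Bcl6 at 24.5, against 30.5 and 105 at 5 or more UMIs.

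The 665 cells also varied among themselves. Split by Cxcr5 UMIs (1, 2, and 3 or more), Tox2 stood at 54.1 (46.2 to 63.1), 74.5 (57.1 to 95.5) and 162 (127 to 202) CPM. Il7r stood at 219, 166 and 68.1 CPM in the same order. The 58 cells with 3 or more Cxcr5 UMIs had Sostdc1 at 21.3 CPM (10.2 to 39.1). The 209 Cxcr5+ Pdcd1+ cells with as many Cxcr5 UMIs had Tox2 at 213 CPM (192 to 235), Il7r at 49.7 (40.0 to 61.1) and Sostdc1 at 86.2 (73.2 to 101). At this number of Cxcr5 UMIs the intervals of Tox2 and Il7r overlapped between the gates, as did those of P2rx7, Klf2 and Ccr7. Those of Sostdc1 did not, nor did those of Bcl6, Il21, Il4 and Maf. These 4 stood at 42.6, 44.7, 17.0 and 575 CPM against 95.6, 108, 63.0 and 895 in the Cxcr5+ Pdcd1+ cells. Cxcr5 is part of the rule, and these levels are a description.

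A Tox2 UMI was present in 180 of the cells and absent in 485. Between these, 89 of 5527 genes were called (1.61%), 46 higher (0.832%) and 43 lower (0.778%) with Tox2. The split used these cells' own counts and is a description. Bcl6 stood at 40.5 CPM with Tox2 and 17.3 without, P2rx7 at 75.8 and 37.02, and Sostdc1 at 32.3 and 14.7.

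The recirculation and cytotoxic genes went the other way. Il7r stood at 70.6 CPM with Tox2 and 246 without, Dapl1 at 34.5 and 139, and Ccl5 at 27.8 and 305. Of 18 resting and central memory genes, 6 were called lower with Tox2 and 0 higher, and of 13 Th1 and cytotoxic genes also 6 and 0. Of the latter, Gzmb, Eomes, Prf1 and Ctsw reached 20 CPM only in the cells without Tox2, so this count carries no support of its own. Ccl5 and Nkg7 reached it in both parts. Ly6c1 of the resting list also entered only through the cells without Tox2. Cells with a Tox2 UMI were somewhat deeper, at a median of 6457 against 5569 UMIs. The myeloid genes that headed the higher calls, such as Chil3, had their UMIs in few cells, Chil3 in 1.

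Tfh genes were detected in a minority of the cells. A UMI of Bcl6, Il21, Il4, Sostdc1 or Ascl2 was found in 25.3% (22.0 to 28.7) of the 665 cells. The share was 67.1% in Cxcr5+ Pdcd1+ cells, 26.8% in Cxcr5- Pdcd1+ cells and 7.68% in Cxcr5- Pdcd1- cells. Thinned to 3000 UMIs, it was 14.4% (11.8 to 17.4) of the Cxcr5+ Pdcd1- cells, 46.2% of the Cxcr5+ Pdcd1+ cells and 4.47% of the Cxcr5- Pdcd1- cells.

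T cell receptor beta segments, which the gates did not use, were detected in 144 of the 665 cells, with 189 UMIs. Trbv2 took 21.7% (16.0 to 28.3) of these UMIs, against 17.2% (12.4 to 23.0) in Cxcr5+ Pdcd1+ and 21.9% (19.5 to 24.4) in Cxcr5- Pdcd1- cells. Trbv26 took 6.88% (3.71 to 11.5), against 13.4% (9.09 to 18.8) and 5.47% (4.21 to 6.97). These intervals overlap with that of the Cxcr5+ Pdcd1- cells in every case, which does not exclude a difference. Counted by cells, Trbv26 was detected in 8 of 665, in 22 of 668 Cxcr5+ Pdcd1+ and in 57 of 5667 Cxcr5- Pdcd1- cells. Only Trbv2 and Trbv26 of 35 segments are given, UMIs of 1 cell are not independent, and segment use was not tested.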

How the data were processed

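Only the single-cell library was used. Per the labels' protocols it was made with the Chromium single cell 3′ kit v.2. The authors deposited raw UMI counts per gene and barcode. Per the file headers, the software was Cell Ranger 3.1.0. The submitters' processing notes name Cell Ranger 2.1.0 and Seurat 2, with no roles. Counts were read with Python 3.11.15 and scipy 1.17.1. Gates, CPM of UMIs summed per gate and log2(CPM + 1) ratios were computed here, with exact conditional binomial intervals for ratios. Thinning used seed 1. The matrix holds 106127466 UMIs of 31053 genes, with a median of 5673 per barcode. A floor of 3 UMIs is 0.693 CPM in the 665 cells.

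Named genes are 9 fixed markers, the 12 highest and lowest ratios per comparison and up to 4 genes of each of 32 lists. The others named were chosen after their values were seen. The cells and lists were chosen with earlier results of these data known. Scripts were tested on simulated counts.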

Additional observations from a re-analysis of the deposited data

How the results depend on the processing

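Read against Cxcr5+ Pdcd1+ cells, a comparison gate of Cxcr5, Pdcd1 and Foxp3 counts alone gave 44 genes higher and 214 lower. Thinning gave 117 lower, a minimum of 50 CPM gave 16 and 31, no minimum 154 and 289, and a mitochondrial limit of 5% gave 47 higher with 286 cells. Against Cxcr5- Pdcd1- cells, at least 2 Cxcr5 UMIs (183 cells) gave 128 higher and 53 lower, gates on thinned counts 33 lower, median centring 30 and 33, a minimum of 50 CPM 22 and 11, and no minimum 184 and 138. Leaving out cells with any B cell UMI kept 69 cells, with counts of 380 and 515 in the first comparison and 219 and 108 in the second. The 3 further alternatives were chosen after seeing the data: without the top cell of each gene 26 genes were lower against Cxcr5- Pdcd1- cells, without cells rich in myeloid UMIs 11, and with Cd4-positive cells alone no count moved by over 1.5 times. The share of cells with Sostdc1 was 3.01% thinned and 1.45% without B cell UMIs.

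Single genes turned sign on the log2 scale. Against Cxcr5+ Pdcd1+ cells, at least 2 Cxcr5 UMIs gave S100a8 -0.00028 and Ccl8 -1.50, and gates on thinned counts S100a8 -0.24, S100a9 -0.28 and Cxcl10 0.38. The 69 cells gave S100a8 -2.01, Eomes -0.86, Ccl8 -2.14, Nkg7 -0.19, Ccl5 -2.66, Krt83 0.32, Il1r1 0.41 and Gzmk -3.12. Without the 10% deepest cells S100a8 was -0.11, without myeloid-rich cells Ccl8 -1.72, and with Cd4-positive cells Cd8b1 -0.13. Against Cxcr5- Pdcd1- cells, the 69 cells gave Sostdc1 -0.79, Il21 -2.18, Eomes -1.38, S100a9 0.23 and Ly6d 0.78. S100a9 was 0.30 without the deepest cells, 1.70 with at least 4 CD3 UMIs, 0.31 without its top cell and 1.98 with Cd4-positive cells. Without myeloid-rich cells S100a9 was 0.34, Ly6d 0.17, H2-Eb1 0.38, H2-Ab1 0.17, Irf8 0.12 and Cd74 0.14. The cause was not tested, beyond the fewer cells that each alternative leaves. A ratio in the 69 cells may rest on very few UMIs, so a turn there is not evidence of a reversal. Tox2 ranged from -1.59 to -0.75 and from 2.09 to 3.07 in the 2 comparisons over all alternatives, and Bcl6 from -1.82 to -1.05 and from 1.15 to 1.96.

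No paired analysis was possible because the results come from 1 library and no test. The replicate numbers in the labels belong to samples not analysed here.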
